A study of Homo sapiens with 54 samples.

Results

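The expression of 10 dual-specificity phosphatase genes was followed in human medium spiny neuron-like (hMSN-like) cells given dopamine or agonists of dopamine receptors. The genes were DUSP1, DUSP2, DUSP4, DUSP5, DUSP6, DUSP7, DUSP8, DUSP10, DUSP14 and DUSP16, picked by symbol from the 60676 genes listed in every library, and each symbol matched a single gene. The cells were differentiated with Activin A from H9 (WA09), an established human embryonic stem cell line, so that all groups came from 1 line. RNA-seq was read from 53 libraries in 18 conditions and 4 experiments. In the first pair of experiments, hMSN-like cells received dopamine at 1 mM or at 1 µM, with PBS as the control of each dose; the dopamine was dissolved in 100 µM ascorbic acid. Acute cells had a single dose on day in vitro 45 (DIV45), chronic cells had daily doses for 5 days up to DIV50, and RNA was taken either 1 h or 24 h later, with 3 libraries per group. In the time course, cells had 2, 3, 4 or 5 daily doses of 1 mM dopamine, all ending on DIV50 with RNA taken 1 h later, against a chronic ascorbic acid control (AA), the solvent of the dopamine. These groups had 3 libraries each, except the 5 Day group, of which 2 of 3 labelled libraries were analysed here. In the last experiment, cells received 50 µM SKF82958, an agonist of D1-like receptors, 50 µM quinpirole, an agonist of D2-like receptors, or water on DIV45, with 3 libraries per group.

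Mitogen-activated protein kinases (MAPKs) such as ERK, JNK and p38 are switched on by phosphorylation of a threonine and a tyrosine in their activation loop, and dual-specificity MAPK phosphatases (MKPs) remove both phosphates. Many MKP genes are themselves switched on by the pathways that their products shut down, which makes them a negative feedback. By the usual grouping, DUSP1, DUSP2, DUSP4 and DUSP5 encode inducible nuclear MKPs, DUSP6 and DUSP7 encode cytoplasmic MKPs that act on ERK, and DUSP8, DUSP10 and DUSP16 encode MKPs that act mainly on JNK and p38. DUSP14 encodes a small atypical phosphatase without the amino-terminal MAPK-binding domain of the others. In striatal neurons, D1 receptor stimulation is known to raise cyclic AMP and to activate ERK.

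The stretch upstream of the start site is shown for 3 members that differed in the libraries below. DUSP1 and DUSP6 rose in the time course, and DUSP1 also 1 h after 1 mM dopamine. DUSP8 was called higher in none of the comparisons against a control in the fits with all groups of an experiment. Each is the 250 bases before the start in the RefSeq annotation of GRCh38.p14, written 5′ to 3′ on the strand of the gene. Capitals mark the cyclic AMP response element (CRE), searched as TGACGTCA, and the shorter motif TGACG that it contains, on both strands. The DUSP1 stretch lies at chr5:172771196-172771445 (minus strand), the DUSP8 stretch at chr11:1572272-1572521 (minus strand) and the DUSP6 stretch at chr12:89352502-89352751 (minus strand).
DUSP1: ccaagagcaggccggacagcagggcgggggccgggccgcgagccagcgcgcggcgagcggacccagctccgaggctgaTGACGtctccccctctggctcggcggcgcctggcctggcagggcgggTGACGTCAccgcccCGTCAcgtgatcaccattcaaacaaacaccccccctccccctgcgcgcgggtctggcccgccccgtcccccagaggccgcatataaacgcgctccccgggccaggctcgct
DUSP8: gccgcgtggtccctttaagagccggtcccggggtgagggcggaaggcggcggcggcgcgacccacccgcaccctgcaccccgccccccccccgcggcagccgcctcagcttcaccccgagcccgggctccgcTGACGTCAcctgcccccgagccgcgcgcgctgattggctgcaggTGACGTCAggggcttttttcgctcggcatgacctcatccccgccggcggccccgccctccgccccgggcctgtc
DUSP6: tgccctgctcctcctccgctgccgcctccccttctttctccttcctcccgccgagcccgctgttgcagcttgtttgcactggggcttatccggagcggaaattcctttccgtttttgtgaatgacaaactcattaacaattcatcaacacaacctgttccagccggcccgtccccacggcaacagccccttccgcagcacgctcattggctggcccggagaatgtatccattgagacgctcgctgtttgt

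DUSP1 held a full CRE at -125 to -118 from its start, and DUSP8 held a pair of them, at -118 to -111 and at -74 to -67. DUSP6 held neither the full CRE nor TGACG. Windows of 300 bases (250 before and 50 after the start) were searched in 8 members, with 9 windows, since DUSP10 had 2 starts. Of the 8 members, 2 held the full CRE, against 1.85% of 35116 promoters, and 3 held TGACG (DUSP1, DUSP8 and DUSP10), against 24.6%. The TGACG of DUSP10 lay in its window at chr1:221736851-221737150, inside the gene. Members were counted per gene and the percentages per promoter. DUSP4, on chromosome 8, was left out of the search, and DUSP5 had no entry among the promoters used. A TATAAA box stood at -30 to -25 of DUSP1 and in 11.5% of all promoters. GCGGGGGCG, a binding sequence of EGR1, stood at -103 to -95 of DUSP2 and in 5.07%. The CArG box, the AP-1 sequence TGANTCA and the ETS sequence CCGGAAG were found in 0 of the 8 members and in 1.29%, 7.71% and 10.3% of all promoters. Of the pair with a full CRE, DUSP1 was called higher in 6 and DUSP8 in 0 of the 14 comparisons against a control. This count is from the fits with all groups and libraries. With only the 4 Day and AA libraries fitted, DUSP8 was called higher at 4 Days. The gene of DUSP1 spans chr5:172768096-172771195, that of DUSP6 chr12:89347235-89352501 and that of DUSP8 chr11:1554051-1572271, and the other members lie on chromosomes 1 (DUSP10), 2 (DUSP2), 3 (DUSP7), 8 (DUSP4), 10 (DUSP5), 12 (DUSP16) and 17 (DUSP14).

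All 10 members were detected in the control cells. Levels are given in TPM, a measure of transcript abundance scaled to gene length and library size that can be compared between genes. Over the 12 control libraries, DUSP8 had the highest median, at 121.6 TPM (lowest 59.2, highest 134), followed by DUSP4 at 116 TPM (39.4 to 165). Both stood above 92.6% or more of the 16590 genes expressed in control cells. DUSP6 followed at 58.3 TPM (36.1 to 105), DUSP1 at 50.7 TPM (10.4 to 60.3) and DUSP16 at 40.9 TPM (26.0 to 72.0). DUSP14 had a median of 23.2 TPM (11.6 to 29.0), DUSP5 of 16.7 TPM (6.70 to 56.8), DUSP7 of 14.6 TPM (5.52 to 18.1) and DUSP10 of 13.5 TPM (9.32 to 20.8). DUSP2 was lowest at 3.01 TPM (1.99 to 7.42). Of the neighbours in this order, only DUSP10 and DUSP2 had ranges that did not overlap. The JNK and p38 phosphatase DUSP8 and the nuclear phosphatase DUSP4 had the highest medians, and the nuclear phosphatase DUSP2 the lowest. The order of the first pair differed between experiments. DUSP4 was above DUSP8 in the 1 mM PBS group (mean 144 against 119 TPM) and in water (144 against 132 TPM), and below it in the 1 µM PBS group (64.3 against 103.5 TPM) and in AA (102.6 against 115 TPM). DUSP5 and DUSP6 differed between experiments even in control cells. DUSP5 was at 11.8, 12.7 and 14.2 TPM in the AA libraries and at 54.3, 56.8 and 52.0 TPM in the water libraries. DUSP6 was at 40.6, 39.3 and 48.7 TPM in AA and at 105, 101 and 103 TPM in water. These experiments had different control solutions, and the time course ended on DIV50 while the agonists and water were given on DIV45. Experiment, culture age and control solution therefore cannot be told apart.

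**Figure D1:**
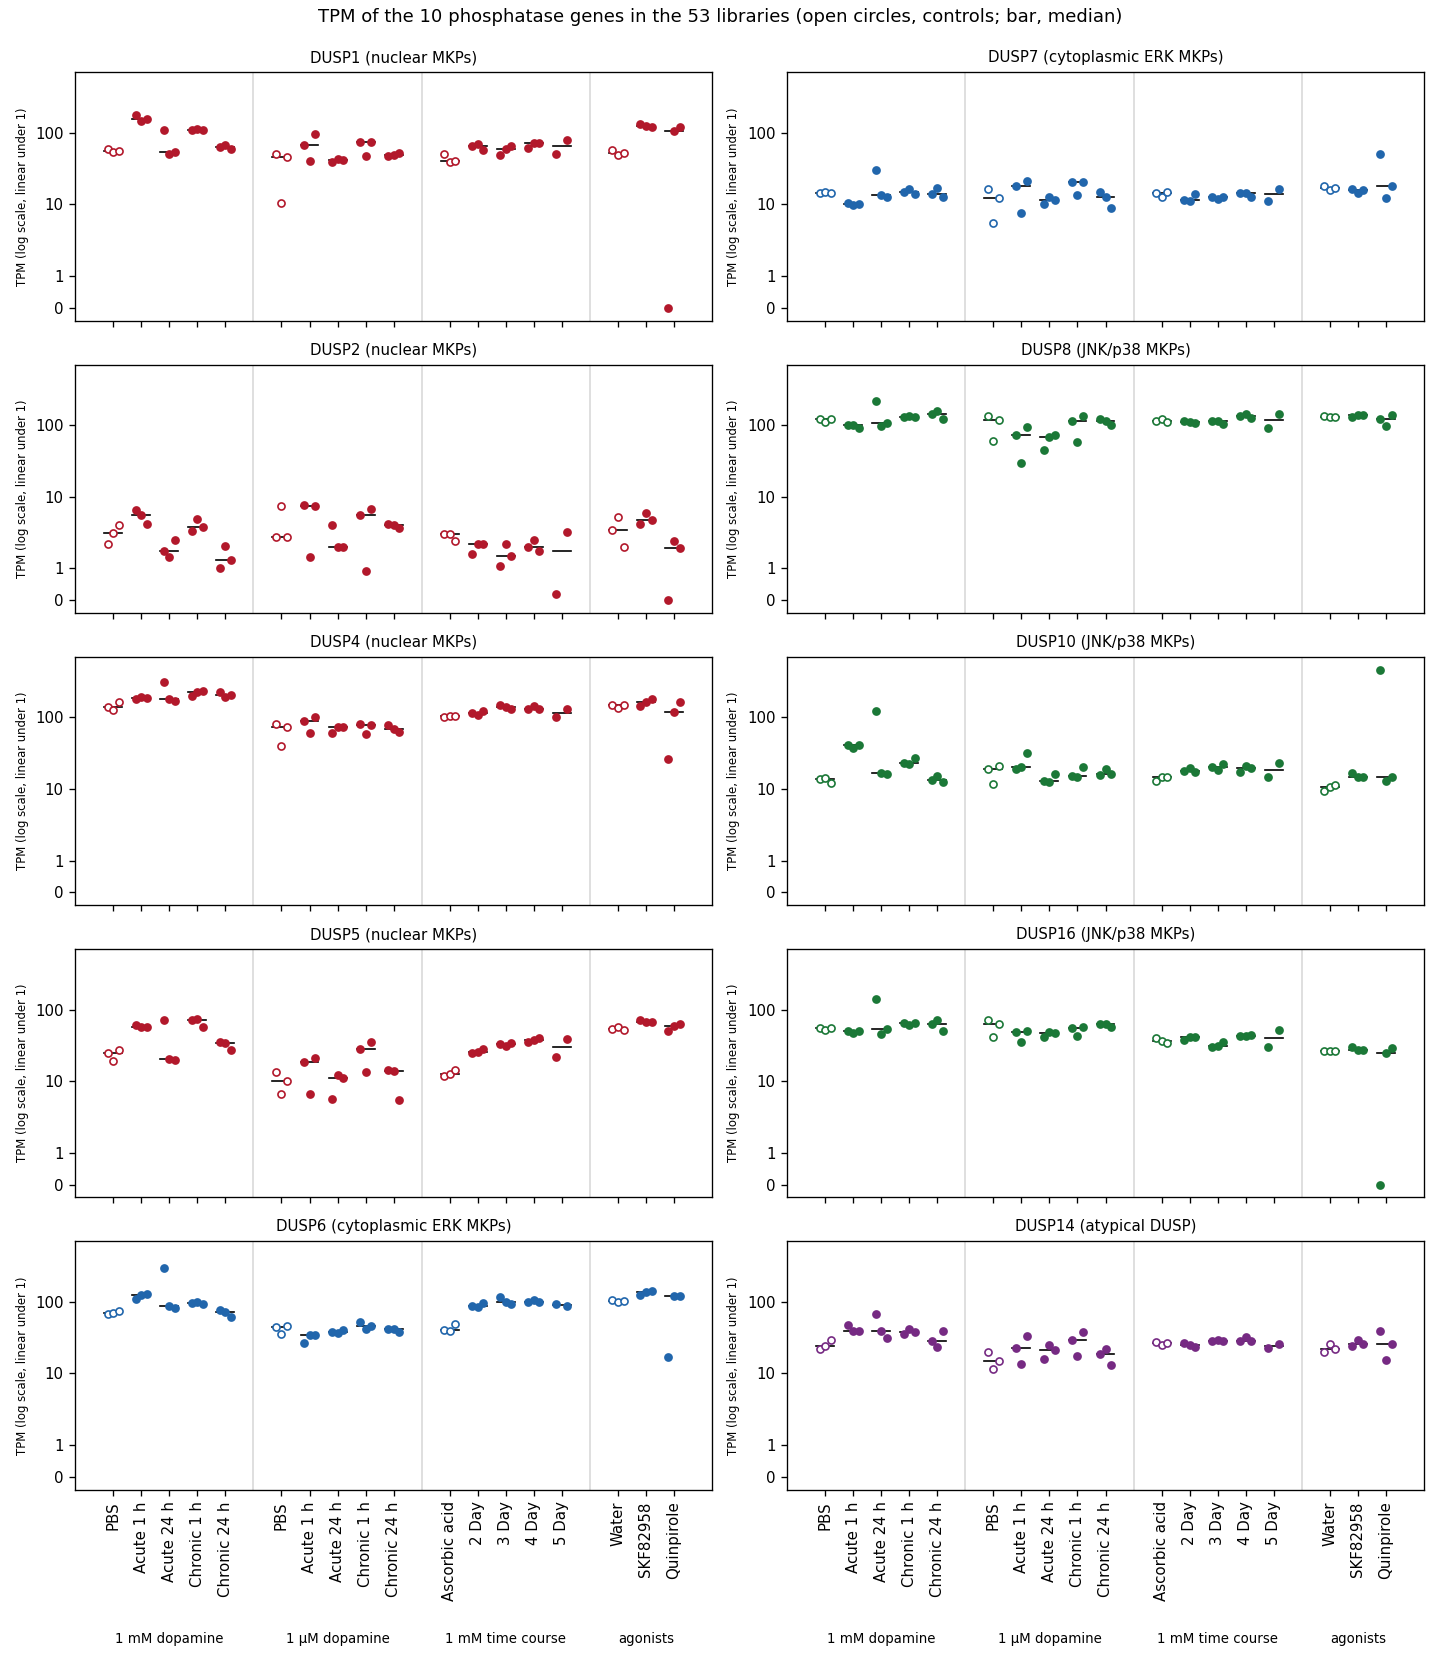
TPM of each of the 10 phosphatase genes (vertical axis, logarithmic and linear below 1) in the 53 libraries by condition (horizontal axis), with open circles for control libraries and a bar for the median of each condition. DUSP8 and DUSP4 are the highest members in control cells and DUSP2 the lowest, and single libraries lie far from their group, among them replicate 1 of the 1 mM acute 24 h group and replicate 1 of quinpirole.

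Libraries held 5755919 to 27702963 exon reads, except quinpirole replicate 1, which held 137051, with 96.67% of its gene reads in introns. In that library DUSP1, DUSP2 and DUSP16 had 0 exon reads, and its correlation with the mean of the other quinpirole libraries over 17349 genes was 0.036. Another 4 libraries stood apart from their group, with 8.79% to 18.8% of genes more than 2-fold off the mean of the others. Replicate 3 of 1 µM acute 1 h, at 8.40%, lay close to this range and was kept. The 4 were replicate 1 of 1 mM acute 24 h and replicate 2 of the 1 µM PBS, acute 1 h and chronic 1 h groups. Their summed TPM over 18 neuron markers was 713.9 to 857, against 1076 to 1550 in the other libraries of their groups. Results that rest on these libraries are given with and without them. Of the neuron markers, 17 of 18 had a median of at least 1 TPM in control cells, with DRD1 at 1.6 TPM, DRD2 at 4.3 TPM and PDYN, a marker of D1 neurons, at 0.22 TPM. Of 8 progenitor and pluripotent markers 5 reached 1 TPM, as did 7 of 8 glial markers, 2 of 4 interneuron markers and 5 of 8 mesenchymal, endothelial and microglial markers, so RNA of markers of other cell types was present too. In such bulk RNA, a change in the number of cells of a type and a change in RNA per cell cannot be told apart.

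The 1 mM experiment asked how a single dose and repeated doses of dopamine move gene expression. At 1 h after the acute dose, DUSP1, DUSP5 and DUSP14 rose. DUSP1, an immediate early gene whose product acts on p38, JNK and ERK in the nucleus, was at 60.3, 53.4 and 55.8 TPM in PBS and at 178, 147 and 156 TPM after dopamine. Every dosed library was above every PBS library. The change was 2.97-fold (log2 1.57 ± 0.19, SE, edgeR quasi-likelihood test with Benjamini-Hochberg adjustment over 17804 genes, adjusted p = 0.000246). DUSP5, which encodes a nuclear phosphatase specific for ERK, went from 24.9, 19.3 and 26.9 TPM to 61.7, 56.7 and 56.8 TPM, a 2.58-fold rise (log2 1.37 ± 0.34, adjusted p = 0.0169). DUSP14 went from 22.0, 24.4 and 29.0 TPM to 47.4, 39.7 and 38.5 TPM (log2 0.80 ± 0.22, adjusted p = 0.0259). The groups did not overlap for any of these genes, nor for any other member. The share of all genes without overlap was not counted. The 3 members are to be read against 8.04% of all genes called higher and 7.94% called lower. The call of DUSP1 held with any 1 library left out. That of DUSP5 was lost without PBS replicate 1 or 2 or acute replicate 3 (adjusted p up to 0.082), and that of DUSP14 without PBS replicate 1 or 2 or any 1 of the acute libraries (up to 0.109).

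DUSP10 and DUSP6 had large differences that did not pass in this fit. DUSP10, whose product (MKP-5) acts on JNK and p38, was at 13.98, 14.01 and 12 TPM in PBS and at 41.7, 36.9 and 41.3 TPM 1 h after dopamine (log2 1.65 ± 0.54, adjusted p = 0.0537). DUSP6 (MKP-3), the main cytoplasmic brake on ERK, was at 67.9, 69.1 and 75.0 TPM in PBS and at 110.2, 124 and 128 TPM after dopamine (log2 0.83 ± 0.32, adjusted p = 0.0876). In neither gene did the groups overlap, but this held for every member in this comparison, including DUSP16 (log2 -0.07). The libraries of the 1 mM experiment share 1 estimate of spread, and replicate 1 of the acute 24 h group lies far from its pair for both genes (DUSP10 122.7 TPM against 16.7 and 16.2, DUSP6 295 TPM against 87.6 and 83.2). With that library left out, 9 of 10 members passed at 1 h, 7 higher and 2 lower, against 19.9% of genes called higher and 19.9% called lower. The 7 were DUSP1, DUSP2, DUSP4, DUSP5, DUSP6, DUSP10 and DUSP14. DUSP10 differed by log2 1.63 (adjusted p = 9.03e-08) and DUSP6 by log2 0.82 (adjusted p = 6.17e-06). The 2 lower members were DUSP7, a second cytoplasmic ERK phosphatase (14.4, 15.0 and 14.4 TPM in PBS, 10.6, 9.91 and 10.1 TPM after dopamine, log2 -0.47, adjusted p = 0.00344), and DUSP8 (123, 109.8 and 124 TPM, against 100.8, 100.9 and 90.7 TPM, log2 -0.24, adjusted p = 0.0375). DUSP16 (MKP-7), a JNK phosphatase, did not pass in either fit (log2 -0.07 and -0.09). Within the cytoplasmic ERK pair and within the JNK and p38 trio, the members did not move together in that fit. The share of reads in introns moved with the groups too, at 19.53% to 21.81% in PBS and 12.26% to 13.21% at acute 1 h, and its part in these results was not tested. Counted over exons and introns together, DUSP8 differed by log2 0.15 and DUSP7 by log2 -0.11, and neither passed. Every member was higher in that count than with exons alone, with all libraries, DUSP4 for instance at log2 0.75 against 0.44.

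After 5 daily doses, DUSP1 and DUSP5 were again higher 1 h after the last dose. DUSP1 was at 111, 115 and 108 TPM, 1.92-fold over PBS (log2 0.94 ± 0.19, adjusted p = 0.0208). DUSP5 was at 72.0, 75.0 and 57.4 TPM (log2 1.48 ± 0.34, adjusted p = 0.0413). Again no chronic library overlapped with PBS in these genes, as in all other members except DUSP2 and DUSP7. This included DUSP16 (log2 0.195) and DUSP8 (log2 0.10), which did not pass. The share of all genes without overlap was not counted here either. The calls of DUSP1 and DUSP5 compare with 1.27% of genes called higher and 0.814% called lower. Both calls were lost when any 1 of the 6 libraries compared was left out (adjusted p 0.067 to 0.116 for DUSP1 and 0.085 to 0.194 for DUSP5). Without replicate 1 of acute 24 h, 6 members passed, all of them higher, against 9.25% of genes higher and 9.1% lower: DUSP1, DUSP4 (log2 0.56), DUSP5, DUSP6 (log2 0.41), DUSP10 (log2 0.83) and DUSP14 (log2 0.55). DUSP4, a nuclear phosphatase of ERK and JNK (MKP-2), was at 202, 227 and 232 TPM after chronic dopamine and at 139.6, 128 and 165 TPM in PBS, without overlap. Cell type markers moved with the chronic group. Glial markers summed to 189 to 203 TPM at chronic 1 h. This was above the 112.5 to 128 TPM in PBS and the 129.6 to 144.5 TPM at acute 1 h. Of 7 tested glial markers, 1 was called higher in each comparison. The shares of all genes were 1.27% called higher against PBS and 11.3% called in either direction against acute 1 h. Neuron markers (1383 to 1456 TPM) and progenitor and pluripotent markers (1115 to 1204 TPM) summed to less than in PBS (1501 to 1719 and 1271 to 1348 TPM). The part of these markers in the chronic results was not tested.

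The response of DUSP1 was smaller after chronic than after acute dopamine. Its chronic libraries, at 108 to 115 TPM, lay below its acute libraries, at 147 to 178 TPM, a difference of log2 -0.63 ± 0.18 (adjusted p = 0.0394). It was the only member to pass in this comparison, in which 11.3% of all genes passed. The call was lost when any 1 of the 6 libraries was left out (adjusted p 0.071 to 0.128). Without replicate 1 of acute 24 h, 6 members passed, against 34% of all genes. DUSP1, DUSP6 (log2 -0.41) and DUSP10 (log2 -0.81) were lower after chronic dopamine, and DUSP7 (log2 0.47), DUSP8 (log2 0.34) and DUSP16 (log2 0.28) were higher. Introns held 12.26% to 13.21% of gene reads at acute 1 h and 20.58% to 20.89% at chronic 1 h. Counted over exons and introns together, with all libraries, these 3 differed by log2 0.15, 0.03 and -0.03 and were not called. The shift was not particular to them, since every member was lower in that count than with exons alone. DUSP4 went from log2 0.13 to -0.18, with 52 to 89 intron reads beside 4610 to 5211 exon reads at acute 1 h. DUSP1 went from log2 -0.63 to -0.95. The part of scaling in this shift was not tested. DUSP5 did not pass and was at 56.7 to 61.7 TPM 1 h after acute and 57.4 to 75.0 TPM 1 h after chronic dopamine (log2 0.11 ± 0.33, adjusted p = 0.872). Acute cells were harvested at DIV45 or a day later and chronic cells at DIV50 or a day later, so the number of doses and the age of the culture cannot be told apart. The age of the PBS cells is not given in the sources used here.

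**Figure D2:**
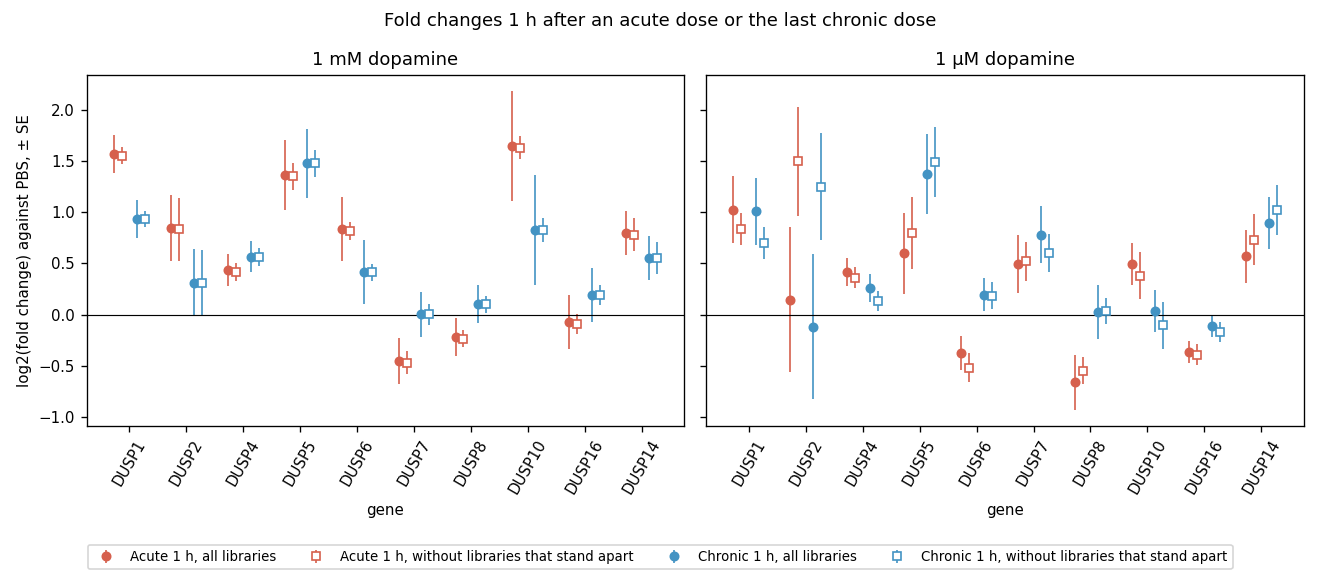
log2 fold change over PBS (vertical axis, with SE) of the 10 members 1 h after an acute dose and 1 h after the last chronic dose, at 1 mM and at 1 µM, with filled circles for all libraries and open squares without the libraries that stand apart. DUSP1 at 1 mM is at 1.57 after the acute and 0.94 after the chronic dose, while DUSP5 is at 1.37 and 1.48.

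At 24 h after the acute 1 mM dose, DUSP10 (log2 1.74 ± 0.54, adjusted p = 0.0463) and DUSP14 (log2 0.71 ± 0.22, adjusted p = 0.044) were called higher, against 8.38% of genes higher and 7.09% lower. Replicate 1 decides the DUSP10 value. DUSP10 was at 122.7, 16.7 and 16.2 TPM, and DUSP14 at 66.8, 39.0 and 31.6 TPM. Without replicate 1, DUSP10 was at log2 0.25 (adjusted p = 0.163) and DUSP14 at log2 0.44 (adjusted p = 0.0851), and 0 of 10 members passed in the edgeR test, against 11.1% of genes higher and 11.1% lower, with 4 members at an unadjusted p under 0.05. Both calls were also lost without any 1 of the PBS libraries. In replicates 2 and 3, DUSP1 was at 50.0 and 55.0 TPM and DUSP5 at 20.4 and 19.7 TPM, within or near the range of PBS. At 24 h after the last chronic dose, 0 of 10 members passed in the edgeR test or in DESeq2, against 0.118% of genes higher and 0.545% lower, and 2 members had an unadjusted p under 0.05. They were DUSP2 (1.01, 2.03 and 1.29 TPM, against 2.19, 3.15 and 4.01 TPM in PBS, log2 -1.13) and DUSP4 (223, 195 and 203 TPM, log2 0.49). DUSP4 alone passed without replicate 1 of acute 24 h (adjusted p = 0.00349), against 3.06% of genes higher and 5.42% lower. Its 3 libraries were all above the 3 PBS libraries.

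At 1 µM dopamine, 0 of 10 members passed in any comparison of the edgeR fit with all libraries. At acute 1 h, 7 members had an unadjusted p under 0.05 and DESeq2 called 3 (DUSP1, DUSP4 and DUSP16), against 3.25% of genes called higher and 2.52% lower by edgeR. At chronic 1 h, 4 members had an unadjusted p under 0.05 and DESeq2 called 3 (DUSP1, DUSP5 and DUSP14), against 1.75% and 0.834%. The counts at acute 24 h were 2 and 1 (DUSP16), against 1.4% and 1.91%, and at chronic 24 h 0 and 0, against 0% and 0%. For chronic against acute at 1 h they were 4 and 1 (DUSP6), against 1.2% of genes. All these shares are of genes past the adjusted threshold in edgeR. The shares of all genes at an unadjusted p under 0.05 or called by DESeq2 are not given, here or elsewhere. Counts of members by those 2 measures therefore have no like share to be read against. Replicate 2 of PBS, of acute 1 h and of chronic 1 h differed from their groups in several members. DUSP1 was at 50.1, 10.4 and 45.6 TPM in PBS, at 68.3, 40.6 and 97.2 TPM at acute 1 h and at 74.1, 47.8 and 74.1 TPM at chronic 1 h. In each of these groups replicate 2 was the lowest.

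Without the 3 libraries, a choice made after the data were seen, 5 members passed at acute 1 h, against 5.57% of genes higher and 5.7% lower. DUSP1 was 1.79-fold higher (log2 0.84 ± 0.16, adjusted p = 0.00319) and DUSP4 1.29-fold higher (adjusted p = 0.0308). DUSP6 was lower, at 26.6 and 34.4 TPM against 44.5 and 45.8 TPM in PBS (log2 -0.52 ± 0.14, adjusted p = 0.0275). DUSP8, at 72.4 and 93.4 TPM against 134 and 118 TPM, was lower too (log2 -0.55 ± 0.13, adjusted p = 0.0145), as was DUSP16 (log2 -0.39, adjusted p = 0.0218). At acute 24 h the brain-expressed JNK and p38 phosphatase DUSP8 was still lower, at 45.5, 67.3 and 73.8 TPM (log2 -0.92 ± 0.12, adjusted p = 0.000269), with DUSP16 (log2 -0.46, adjusted p = 0.00524), against 5.88% of genes lower. At chronic 1 h, DUSP1 (log2 0.70, adjusted p = 0.014), DUSP5 (27.9 and 35.7 TPM against 13.5 and 10.2 TPM, fold 2.82, adjusted p = 0.0173) and DUSP14 (log2 1.02, adjusted p = 0.0221) were higher, against 4.05% of genes. Chronic against acute, DUSP6 (log2 0.70) and DUSP8 (log2 0.59) were higher, against 4.22% of genes. In these fits, groups of 3 fell to 2 libraries.

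The effects of the doses were set against each other by the interaction of dose and treatment. With all libraries 0 of 10 members passed in edgeR at acute 1 h, where 2.01% of genes passed, 2 members had an unadjusted p under 0.05 and DESeq2 called 1, and 0 of 10 at chronic 1 h, where 0.087% of genes passed, 1 member had an unadjusted p under 0.05 and DESeq2 called 0. DUSP6 came closest. It was at 110.2 to 128 TPM after acute 1 mM against 67.9 to 75.0 TPM in its PBS, and at 26.6 to 34.4 TPM after acute 1 µM against 36.1 to 45.8 TPM in its PBS. The difference of the effects was log2 1.24 ± 0.36 (adjusted p = 0.0666). Without the libraries that stand apart, 4 members differed between doses at acute 1 h, against 9.45% of genes. DUSP6 (difference of effects 2.54-fold, adjusted p = 8.02e-06), DUSP10 (log2 1.26, adjusted p = 0.00141) and DUSP1 (log2 0.73, adjusted p = 0.00567) had the higher effect at 1 mM, and DUSP7 (log2 -0.98, adjusted p = 0.00419) the lower. At chronic 1 h it was DUSP10 alone (log2 0.90, adjusted p = 0.0366), against 3.25% of genes. The doses were run in separate experiments, and the 1 µM cells had more progenitor and pluripotent marker RNA (1575 to 2065 TPM summed over 8 genes, against 1091 to 1458 TPM in the 1 mM cells). They had less glial marker RNA (25.9 to 39.7 against 70.6 to 203 TPM over 8 genes) and less interneuron marker RNA (0 to 10.4 against 15.1 to 62.2 TPM over 4 genes), without overlap. The part of these markers in the difference was not tested.

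**Figure D3:**
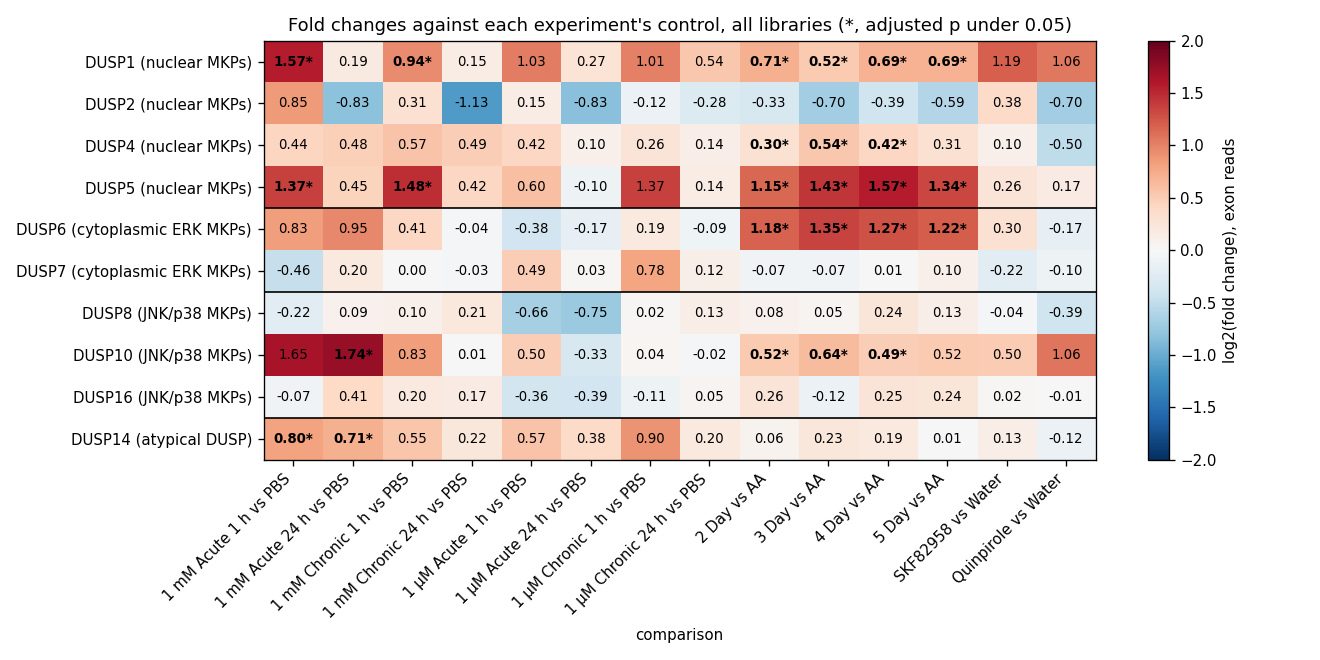
log2 fold change of the 10 members (rows, by class) in the 14 comparisons against a control (columns) as colour, with an asterisk where the adjusted p was under 0.05 with all libraries. The asterisks fall on DUSP1, DUSP4, DUSP5, DUSP6, DUSP10 and DUSP14, and 0 of the 25 calls are lower than control.

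The time course asked how the response moves as daily doses accumulate. DUSP1, DUSP4, DUSP5, DUSP6 and DUSP10 rose after 2, 3 and 4 Days, and DUSP1, DUSP5 and DUSP6 after 5 Days. These 5, 5, 5 and 3 of 10 members compare with 1.89%, 4.77%, 2.58% and 1.23% of all genes called higher and 1.99%, 2.6%, 1.8% and 0.406% called lower. DUSP5 and DUSP6 had the largest changes. From 11.8, 12.7 and 14.2 TPM in AA it went to 24.6, 25.2 and 28.5 TPM at 2 Days, to 32.7, 30.7 and 34.1 TPM at 3 Days and to 35.5, 37.1 and 40.3 TPM at 4 Days. All dosed libraries were above all AA libraries. The changes were 2.22-fold (log2 1.15 ± 0.12, adjusted p = 0.000149), 2.69-fold (log2 1.43 ± 0.12, adjusted p = 1.06e-05) and 2.97-fold (log2 1.57 ± 0.12, adjusted p = 2.71e-06). At 5 Days its 2 libraries were at 22.1 and 38.7 TPM (log2 1.34 ± 0.14, adjusted p = 7.98e-05).

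DUSP6 was at 40.6, 39.3 and 48.7 TPM in AA, at 86.6, 83.6 and 97.0 TPM at 2 Days, at 117, 99.1 and 91.7 TPM at 3 Days, at 100.3, 105.5 and 99.1 TPM at 4 Days and at 92.5 and 87.5 TPM at 5 Days. It was above AA in all dosed libraries from the shortest course on. The changes were between 2.27-fold and 2.55-fold, with log2 1.18 ± 0.13 at 2 Days (adjusted p = 0.000156), 1.35 ± 0.13 at 3 Days (2.32e-05), 1.27 ± 0.13 at 4 Days (6.31e-05) and 1.22 ± 0.14 at 5 Days (0.000372). The calls of DUSP5 and DUSP6 held at each day with any 1 library left out. DUSP7, the other cytoplasmic ERK phosphatase, stayed between log2 -0.07 and 0.10 and did not pass.

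The changes of DUSP1, DUSP4 and DUSP10 were smaller. DUSP1 was at 51.3, 38.6 and 40.1 TPM in AA and at 65.2, 70.1 and 57.9 TPM at 2 Days (log2 0.71 ± 0.13, adjusted p = 0.00976), with 0.52 at 3 Days (0.0308), 0.69 at 4 Days (0.0106) and 0.69 at 5 Days (0.0283). Its 3 Day libraries, at 48.9, 59.96 and 64.9 TPM, overlapped with AA, as did its 5 Day libraries, at 50.7 and 79.0 TPM. DUSP4 was at 100.5, 103 and 104 TPM in AA and at 146.6, 139.6 and 131 TPM at 3 Days (log2 0.54 ± 0.07, adjusted p = 0.000377), with 0.30 at 2 Days (0.0256), 0.42 at 4 Days (0.00374) and 0.31, short of the threshold, at 5 Days (0.0615). DUSP10 was at 13.1, 14.6 and 14.5 TPM in AA and at 20.4, 18.6 and 22.4 TPM at 3 Days (log2 0.64 ± 0.12, adjusted p = 0.00553), with 0.52 at 2 Days (0.0288), 0.49 at 4 Days (0.0342) and 0.52, short of the threshold, at 5 Days (0.0723). The 3 Day calls of DUSP4 and DUSP10 and the 4 Day call of DUSP4 held with any 1 library left out. The others were lost without 1 or more single libraries, with the adjusted p up to 0.154 for DUSP1 (3 Days, AA replicate 2), 0.115 for DUSP4 (2 Days, AA replicate 2) and 0.172 for DUSP10 (2 Days, replicate 2). DUSP2, DUSP7, DUSP8, DUSP14 and DUSP16 did not pass at any day in this fit. With only the 4 Day and AA libraries fitted, DUSP8 (log2 0.23, adjusted p = 0.0143) and DUSP16 (log2 0.24, adjusted p = 0.0209) were also called higher at 4 Days, against 7.32% of genes higher, and with only the 5 Day and AA libraries DUSP1 was not called at 5 Days (adjusted p = 0.0927). DUSP8, for instance, was at 114, 121 and 111 TPM in AA and at 115, 116 and 104 TPM at 3 Days.

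Between 3 and 5 Days, 0 of 10 members passed in edgeR, where 1.16% of all genes passed; 2 members had an unadjusted p under 0.05 and DESeq2 called 1 (DUSP16, log2 0.35). The pair of 5 Day libraries disagreed in several members, with DUSP5 at 22.1 and 38.7 TPM, DUSP16 at 30.1 and 51.3 TPM and DUSP2 at 0.194 and 3.25 TPM. Mesenchymal, endothelial and microglial markers moved with the groups. Their sum was 120.8 to 166 TPM in AA and 158 to 344 TPM in the dosed groups. Of the 5 tested genes, 1, 2, 1 and 1 were called higher at 2, 3, 4 and 5 Days. The shares of all genes called higher were 1.89%, 4.77%, 2.58% and 1.23%. Glial markers summed to 113.5 to 135 TPM in AA and to 175 to 194 TPM at 3 Days. The part of these markers in the results was not tested.

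**Figure D4:**
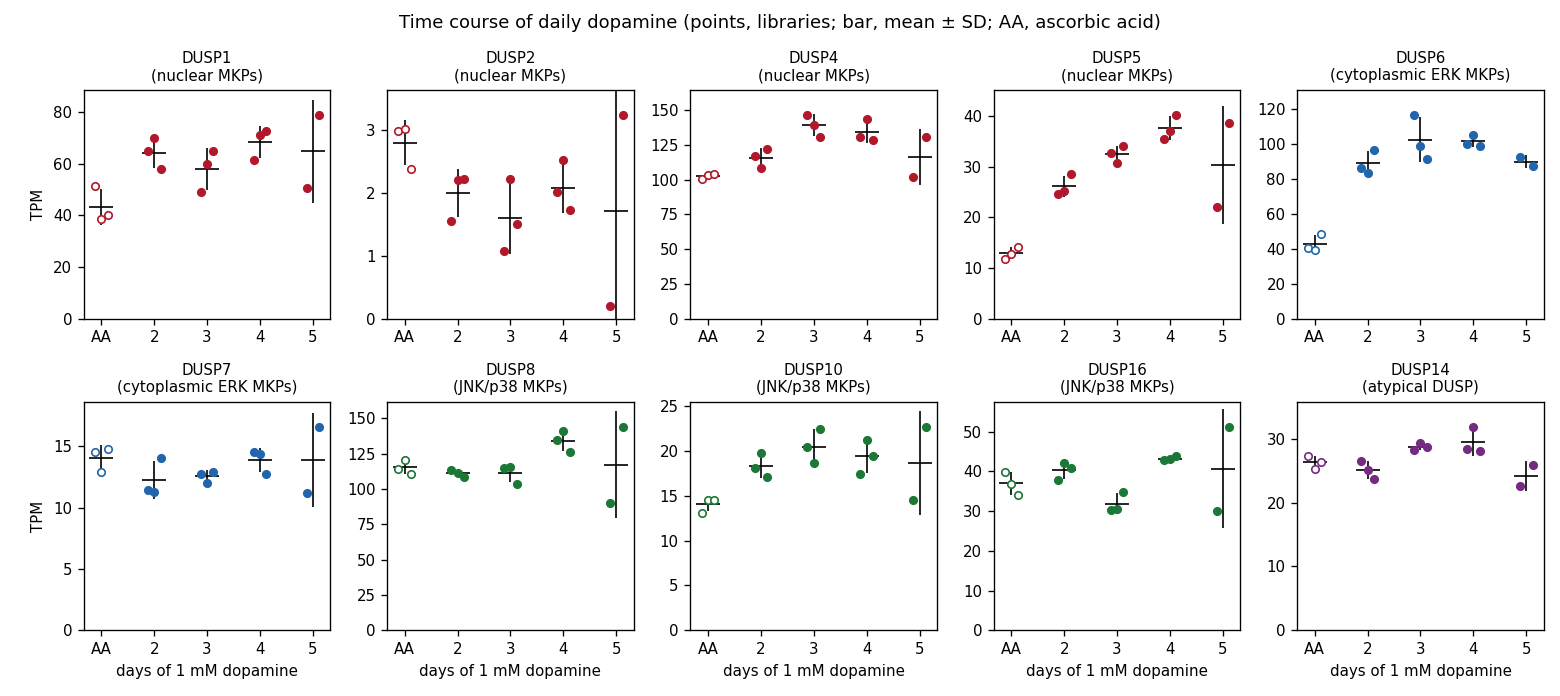
TPM of the members (vertical axis) in each library of the AA control and after 2, 3, 4 and 5 daily doses of 1 mM dopamine (horizontal axis), with points for libraries and bars for mean ± SD (n = 3, and n = 2 at 5 Days); the 5 Day bar of DUSP2 runs past the axis. DUSP5 goes from 11.8 to 14.2 TPM in AA to 35.5 to 40.3 TPM at 4 Days, and DUSP6 is above AA in every dosed library.

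The agonists asked which receptor class gives which response. With all libraries 0 of 10 members passed in edgeR for SKF82958 (0.0124% of genes higher and 0% lower) or for quinpirole (0% and 0%), DUSP1 being the only member with an unadjusted p under 0.05 in each, and DESeq2 called 0 in each. DUSP1 was at 56.9, 48.8 and 52.0 TPM in water, at 135, 126 and 121 TPM after SKF82958, and at 107 and 119.6 TPM in quinpirole replicates 2 and 3, while the shallow replicate 1 had 0 reads of it. That library lists DUSP10 at 456 TPM from 40 exon reads. All deep agonist libraries were above all water libraries. Without quinpirole replicate 1, DUSP1 passed for SKF82958 (2.28-fold, log2 1.19 ± 0.08, adjusted p = 1.81e-06) and for quinpirole (2.22-fold, log2 1.15 ± 0.09, adjusted p = 1.36e-05), and no other member did. The shares of all genes were then 0.612% higher and 0.0122% lower for SKF82958 and 0.184% higher and 0% lower for quinpirole. DUSP6 was at 126, 135 and 142 TPM after SKF82958 and at 121 and 119.8 TPM after quinpirole, against 101 to 105 TPM in water (log2 0.30, adjusted p = 0.164, and log2 0.28, adjusted p = 0.552). DUSP5 was at 66.7 to 71.7 TPM after SKF82958 and at 58.2 and 63.9 TPM after quinpirole, against 52.0 to 56.8 TPM in water, and did not pass either (log2 0.26 and 0.21). DUSP10 differed by log2 0.50 and 0.45 without passing.

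Set against each other at the same dose of 50 µM, the agonists gave 0 of 10 members past the threshold in edgeR, with quinpirole replicate 1 (0 members at an unadjusted p under 0.05, 0% of genes called) and without it (1 member, 0% of genes called), and DESeq2 called 0. Without that library, the difference in DUSP1 was log2 0.04, with a 95% interval of -0.154 to 0.231, so that SKF82958 gave 0.899 to 1.17 times the DUSP1 RNA of quinpirole. For DUSP6 the interval was 0.888 to 1.16 times and for DUSP5 0.899 to 1.18 times. The widest interval was that of DUSP2, the least abundant member, at 1.07 to 3.88 times (log2 1.03, adjusted p = 0.998), with 4.14, 5.96 and 4.69 TPM after SKF82958 and 2.43 and 1.95 TPM after quinpirole.

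Over the 14 comparisons against a control, of which those of an experiment share control libraries, 2.53% of all tests of genes were called higher and 2.08% lower. Nuclear MKPs were called higher in 15 of 56 tests, cytoplasmic ERK MKPs in 4 of 28, JNK and p38 MKPs in 4 of 42 and DUSP14 in 2 of 14, and 0 of these 140 tests were called lower. Without the libraries that stand apart, 5.14% of all tests were called higher and 4.96% lower, and the counts were 25 higher and 0 lower for nuclear MKPs, 6 and 2 for cytoplasmic ERK MKPs, 5 and 5 for JNK and p38 MKPs, and 3 and 0 for DUSP14. Within classes, the calls came from few genes. DUSP1 and DUSP5 had 6 each, DUSP4 3 and DUSP2 0. All 4 cytoplasmic calls were of DUSP6, and all 4 JNK and p38 calls were of DUSP10. Whether the classes differ was not tested, since they hold 4, 2, 3 and 1 genes. At acute 1 h of 1 mM, the median log2 change was 1.11 for nuclear MKPs, 0.19 for cytoplasmic ERK MKPs and -0.07 for JNK and p38 MKPs, against 0.01 for all genes tested. In TPM, the nuclear MKPs together went from 227.5 ± 24.3 (SD, n = 3) in PBS to 411 ± 15.2, while the JNK and p38 MKPs were at 186 ± 9.04 and 186 ± 5.57. Within that unchanged sum, DUSP10 went from a mean of 13.3 to 39.95 TPM, DUSP8 from 118.7 to 97.5 and DUSP16 from 53.8 to 48.9. The cytoplasmic pair went from 85.3 ± 3.71 to 131 ± 8.89, through DUSP6. At 4 Days of the time course, the nuclear sum was 243 ± 12.4 TPM against 162 ± 4.51 in AA, the cytoplasmic sum 115.5 ± 4.05 against 56.9 ± 5.85, and the JNK and p38 sum 196.5 ± 7.99 against 166 ± 6.30.

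A list of 16 genes that ERK signalling is known to switch on or that feed back on it was set beside the members (Sprouty and SPRED inhibitors, IER2, IER3, PHLDA1, ERRFI1, ETV factors, EGR1, FOS and FOSL1). At 1 mM, 7 were called higher and 0 lower at acute 1 h, where 8.04% of all genes were called higher, led by FOS (log2 3.98) and IER2 (log2 1.87), and 4 higher and 0 lower at chronic 1 h (FOS log2 3.30), against 1.27% of all genes higher. At 1 µM acute 1 h, 3 were higher and 1 lower, against 3.25% and 2.52% of all genes, with EGR1 at log2 4.35 and FOS at log2 3.53, and ETV4 at log2 -1.19. In the same comparison, with all libraries, DUSP1 was at log2 1.03 (adjusted p = 0.0824) and DUSP6 at log2 -0.38 (adjusted p = 0.209). In the time course 8, 11, 8 and 8 were higher and 1, 0, 0 and 0 lower, against 1.89%, 4.77%, 2.58% and 1.23% of all genes higher, with FOS between log2 2.29 and 2.50. For the agonists, without quinpirole replicate 1, 6 were higher after SKF82958 and 4 after quinpirole, against 0.612% and 0.184% of all genes, with IER3 at log2 0.98 and 0.75; with that library 0 were in either.

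Of 22 genes of the ERK cascade, which holds the kinases upstream and downstream of ERK, 3 were higher and 2 lower at acute 1 h of 1 mM, near the 8.04% and 7.94% of all genes, among them the ribosomal S6 kinase gene RPS6KA2 (log2 0.45), which was also the only one to pass at 2, 3 and 4 Days (log2 0.26, 0.50 and 0.34). At those days 1.89%, 4.77% and 2.58% of all genes were called higher. At chronic 1 h 0 passed, against 1.27% of all genes higher and 0.814% lower. In the 4 comparisons of 1 µM with PBS 0 passed, against at most 3.25% higher and 2.52% lower. Of 21 genes of the JNK and p38 cascades, 2 were higher and 4 lower at acute 1 h of 1 mM, against the same shares of all genes, with the p38 delta gene MAPK13 at log2 -1.16, and 0 higher and 1 lower at acute 1 h of 1 µM, again MAPK13 (log2 -1.08). At 1 µM acute 1 h, 3.25% of all genes were called higher and 2.52% lower. In the time course 1 gene of this list passed, MAP2K6 at 3 Days (log2 -0.34), where 2.6% of all genes were called lower. Of 12 further dual-specificity phosphatase genes, 1 was higher at acute 1 h of 1 mM (DUSP12, log2 0.37). There 1 was lower, that of the cytoplasmic ERK phosphatase DUSP9 (log2 -1.24). These counts are near the 8.04% and 7.94% of all genes. At chronic 1 h 0 of the 12 passed. DUSP3 was higher at 3 and 4 Days (log2 0.31 and 0.32), where 4.77% and 2.58% of all genes were called higher.

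Reads in introns, which come mostly from unspliced RNA, gave a separate reading of the members and are described with no call. Fitted alone and scaled within themselves, at acute 1 h of 1 mM they differed by log2 2.23 for DUSP5, 1.88 for DUSP10, 1.85 for DUSP6, 1.84 for DUSP1 and 1.08 for DUSP4. DUSP8 was at log2 1.43 and DUSP7 at 1.13 in introns, where their exon reads were at log2 -0.22 and -0.46. DUSP14 was at 0.63 and DUSP16 at 0.58, so every member with a value was positive. Before scaling, DUSP8 had 120 to 177 intron reads per PBS library and 128 to 194 after dopamine. DUSP16 had 448 to 494 and 274 to 296. Introns held 19.53% to 21.81% of gene reads in PBS and 12.26% to 13.21% at acute 1 h. The part of the scaling in these values was not tested. DUSP10 at acute 24 h was at log2 0.45 in introns and 1.74 in exons. In the time course DUSP5 was at log2 2.48, 2.97, 2.53 and 2.22 in introns at 2, 3, 4 and 5 Days and DUSP6 at 0.80, 0.92, 0.86 and 0.62, whereas DUSP1 was at -0.47, -0.13, -0.12 and -0.79. These rest on few reads. DUSP1 had 10 to 12 intron reads per AA library and 4 to 11 per dosed library, and DUSP5 had 4 or 5 per AA library and 10 to 33 per dosed library, so the sizes for these genes are near the limit of counting. DUSP2 gave no value, since too few of its reads lay in introns.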

How the data were processed

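RNA-seq tables of 53 libraries were analysed here, 1 table per library. The authors trimmed the reads for adaptors and quality and mapped them to GRCh38 with Ensembl genes in CLC Genomics Workbench. The strand setting is not given in the sources used here, so reads of overlapping antisense genes cannot be separated. The deposited counts are whole reads per gene on exons and on introns. The deposited TPM values are exon reads per exon length, scaled by the authors' tool to the same sum in each library. The methods name 2 sequencing providers without saying which libraries each one sequenced, so their part was not tested.

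Exon counts were fitted in edgeR 4.0.16 (R 4.3.3; quasi-likelihood test, TMM scaling, filterByExpr with a minimum count of 10 and a minimum total of 15), in 1 fit per experiment with all its groups and no covariate, and with a dose-by-treatment term for the difference between doses. The fits tested 17804 (1 mM), 16541 (1 µM), 16768 (time course), 16132 (agonists) and 18390 (both doses) genes. P-values were adjusted over all of these genes by Benjamini-Hochberg, and a gene passed at an adjusted p under 0.05; standard errors (SE) are of log2 changes. Alternatives were DESeq2 1.42.0, other filters and scalings, total gene reads, a replicate block, the thresholds of the study, and libraries left out. On counts simulated for the 1 mM experiment (acute 1 h, 17512 genes), edgeR found 35 of 83 genes changed 1.5-fold, 54 of 59 changed 2-fold and 58 of 58 changed 4-fold. For the 1 µM experiment (15901 genes) it found 23 of 60, 64 of 72 and 68 of 68. The simulated counts had the same spread for every gene and no library that stands apart. They therefore do not give the share of changes found in the real libraries.

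The members and gene lists were chosen with earlier results of these data known. Members are named in every comparison, and of other lists at most the 3 genes with the smallest adjusted p in a comparison, beside markers. Replicates are separate libraries in the labels, and nothing says whether they came from separate differentiations, so p-values measure only the spread between them. Same-numbered libraries of the 1 µM PBS, acute 1 h and chronic 1 h groups deviated together (correlations 0.12 to 0.45 in all 9 pairs). Replicate 2 stands apart in each of these groups, so the correlations cannot tell pairing by number from that shared deviation. The labels give no pairing. Among other groups with 3 pairs, not all pairs deviated together. Tables were read with Python 3.11.15 and pandas 2.3.3, and figures drawn with matplotlib 3.10.9.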

Additional observations from a re-analysis of the deposited data

How the results depend on the processing

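Groups hold 2 or 3 libraries, and 1 shallow and 4 deviating libraries are among them. With total gene reads, 7 members passed at 1 mM acute 1 h, 4 at acute 24 h, 1 at chronic 1 h and 2 chronic against acute, 2 at 1 µM acute 1 h and 1 chronic against acute, 3 at 4 Days and 1 between doses at acute 1 h. With only the groups compared in the fit, 9 passed at 1 mM acute 1 h, 0 at acute 24 h, 7 at chronic 1 h, 7 chronic against acute, and 2 after SKF82958, where 45.5%, 0%, 25.4%, 44% and 0.939% of all genes passed. The count of 7 at 4 Days added DUSP8 and DUSP16, and the count of 2 at 5 Days lost DUSP1 (13.5% and 0.373% of all genes). With the study's thresholds (a log2 change of at least 1 and 1 TPM), 1 passed at 1 mM acute 24 h, 1 at chronic 1 h, 0 chronic against acute and 2 each at 2, 3 and 4 Days. With DESeq2, 3 passed at 1 µM acute 1 h, 1 at acute 24 h, 3 at chronic 1 h, 1 chronic against acute, 1 for 5 against 3 Days and 1 between doses at acute 1 h. With no filter it was 4 at 1 mM acute 24 h, 1 for 5 against 3 Days and 1 between doses at acute 1 h, and with at least 10 reads in every library 1 each at 1 µM acute 1 h and acute 24 h. Without the libraries that stand apart (chosen after seeing the data), at 1 µM 5 passed at acute 1 h, 2 at acute 24 h, 3 at chronic 1 h and 2 in chronic against acute, and between doses 4 at acute 1 h and 1 at chronic 1 h. The shares of all genes called with total gene reads, the study's thresholds, DESeq2, no filter or at least 10 reads are not given here. The counts of members in those settings therefore cannot be read as a result about the members. The cause was not tested.

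With libraries left out in turn, the count of members past the threshold went from 1 to 9 at 1 mM acute 1 h, 0 to 4 at acute 24 h, 0 to 6 at chronic 1 h, 0 to 1 at chronic 24 h and 0 to 6 chronic against acute. At 1 µM it went from 0 to 3 at acute 1 h and 0 to 1 chronic against acute, and was 0 in the other comparisons. It went from 2 to 5 at 2 Days, 4 to 5 at 3 Days, 3 to 5 at 4 Days, 2 to 3 at 5 Days, and 0 to 1 for 5 against 3 Days. It went from 0 to 1 for each agonist, was 0 between agonists, and went from 0 to 1 between doses at acute 1 h and was 0 at chronic 1 h. Shares of all genes with a single library left out are given above only for replicate 1 of 1 mM acute 24 h and of quinpirole. Correlations of deviations between same-numbered libraries were over 0.1 in 3 of 30 pairs at 1 mM, 14 of 30 at 1 µM, 4 of 26 in the time course and 1 of 9 for the agonists. They were over 0.1 in all 9 pairs among 1 µM PBS, acute 1 h and chronic 1 h. Replicate 2 stood apart in each of these groups, and deviations were taken from group means. The correlations therefore cannot tell pairing by number from that shared deviation. With the block, which covered all groups of the experiment, 0 members passed at 1 µM, as without it. With the replicate number as a block, 0 members passed at 1 mM acute 24 h (adjusted p = 0.0828 for DUSP10 and 0.0656 for DUSP14) and DUSP1 did not pass at 5 Days (DUSP1, 5 Day vs AA, adjusted p = 0.0768), and no other call of a member changed.

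Of the single values of members under the alternatives, 2718 kept direction and side of the threshold, 101 passed in addition, 71 no longer passed and 38 changed sign without passing in either fit; changes of sign within 1 SE of values that did not pass are not among the 38. DESeq2's scaling (200 of 200) and the robust fit (180 of 180) changed none. The 38 follow as log2 values. With total gene reads, DUSP8 was at 0.15 at 1 mM acute 1 h, DUSP4 at -0.18 and DUSP16 at -0.034 chronic against acute at 1 mM, DUSP4 at 0.020 chronic against acute at 1 µM, DUSP5 at -0.33 after quinpirole, and DUSP7 at 0.41 between agonists. Over libraries left out in turn, 1 mM acute 24 h gave -0.16 to 0.33 for DUSP1, -0.29 to 0.74 for DUSP5, -0.21 to 0.39 for DUSP7, -0.26 to 0.24 for DUSP8 and -0.16 to 0.64 for DUSP16, each lowest without replicate 1 of that group. In the same way, acute 24 h at 1 µM gave -0.11 to 0.51 for DUSP1, -1.36 to 0.10 for DUSP2 and -0.041 to 0.20 for DUSP4. DUSP2 went from -0.46 to 0.84 at chronic 1 h and from -0.59 to 0.66 at chronic 24 h, and between doses from -0.21 to 1.03 at acute 1 h and from -0.55 to 0.76 at chronic 1 h. DUSP4 went from -0.0076 to 0.24 at chronic 24 h. These 1 µM signs changed without replicate 2 of PBS. Without all libraries that stand apart the values were -0.11 for DUSP1, 0.093 for DUSP2 and -0.039 for DUSP4 at acute 24 h, 1.25 for DUSP2 at chronic 1 h, 0.67 for DUSP2 and -0.0050 for DUSP4 at chronic 24 h, and -0.66 and -0.97 for DUSP2 between doses. Leaving out 1 library in turn, 5 Days against AA gave -3.41 to 0.13 for DUSP2, -0.018 to 0.24 for DUSP8 and -0.11 to 0.11 for DUSP14. The difference of 5 and 3 Days was -2.70 to 0.83 for DUSP2, -0.31 to 0.074 for DUSP5, -0.41 to 0.094 for DUSP6 and -0.061 to 0.19 for DUSP8. In these, the 2 libraries of the 5 Day group set the ends. A lone 5 Day library was assumed to vary like the other groups. After quinpirole, DUSP5 was at -0.066 with no filter and -0.0045 with only the groups compared. It went from -0.075 to 0.21 over quinpirole and water libraries left out, and DUSP7 from -0.15 to 0.060.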
